A study of Mus musculus with 168 samples.

Results

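The pons and medulla are parts of the hindbrain, below the midbrain, and hold the neurons that set breathing, heart rate and blood pressure. The array profiles compared here were those of pons and medulla 1 hour after reoxygenation (R1) and of pons and medulla of sham-treated controls, 6 arrays of a series of 7 brain regions and 8 stages with 3 arrays each. The arrays were taken by the region and time named in their titles, 3 for R1 and 3 for the control, with 1 male C57BL/6 mouse of 8 to 9 weeks behind each. R1 mice breathed 8% oxygen for 3 hours and then room air for 1 hour. Control mice spent 3 hours in the same chambers in room air and 24 hours in their home cages, so hypoxia, the time since leaving the chamber and the hour of day cannot be told apart between the groups. All 45037 probe sets other than the array's own controls were tested. A probe set is a group of oligonucleotides for 1 transcript, and its value is a linear fluorescence intensity.

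Cells sense low oxygen through the hypoxia-inducible factors (HIFs), transcription factors that are broken down while oxygen is plentiful and that switch on genes for blood vessel growth, glucose uptake and glycolysis when it falls. Return to room air ends that stabilization. A separate class, the immediate early genes, is switched on within minutes of neuronal activity or stress, and many of them encode transcription factors. In a piece of brainstem, fewer cells of a type and less RNA per cell cannot be told apart.

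The arrays carried the markers of the labelled region. The summed intensity of 12 markers of pons and medulla, Hox genes and genes of serotonin, noradrenaline and glycine neurons among them, was 2156 to 2292 at R1 and 2059 to 2410 in controls, above the 287 to 851 of control arrays from the other 6 regions. For 12 cerebellum markers the sum was 4807 in R1 replicate 2, 2251 and 2563 in the other R1 arrays and 1866 to 2762 in controls, against at least 25032 in cerebellum controls. The share of probe sets under an intensity of 16 was 28.1 to 28.9% at R1 and 26.2 to 28.3% in controls, and the array medians were 40.1 to 41.4 and 41.8 to 45.4, which did not overlap. The 3′ to 5′ ratio of Gapdh probe sets, a sign of RNA quality, was 0.748 to 0.765 at R1 and 0.743 to 0.787 in controls. All changes below are differences of log2(intensity + 16), R1 minus control, with their standard errors (SE). The added 16 makes the changes of dim probe sets look smaller.

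At R1, 51 probe sets differed from the control at an adjusted p under 0.05 by limma, which is 0.113% of all tested. Of these, 34 were higher (0.0755%) and 17 lower (0.0377%). At an unadjusted p under 0.05 there were 1163 higher (2.58%) and 2349 lower (5.22%). The R1 arrays did not overlap the control arrays for any of the 51, and over all probe sets the groups were apart in 13.8%. A test with 3 arrays a group picks such probe sets, so the lack of overlap adds no support. Among the 51, 28 higher probe sets named 25 single genes and 16 lower ones named 14, while the others named several genes or none. The median size of change was 0.74 and the smallest 0.38, against a median SE of 0.16 over all probe sets. In simulated data of this layout, with 45037 probe sets tested, 86% of 2-fold but 28% of 1.5-fold changes were recovered, so many small changes would not be seen. The changes were planted on the log2(intensity + 16) scale, only in probe sets with an average intensity of at least 32. Recovery among dimmer ones was not measured. The calls rest on a spread estimated from all 24 pons-medulla arrays. With the 6 arrays alone 0 passed by limma (lowest adjusted p = 0.0784), with 3704 at an unadjusted p under 0.05. Leaving out R1 replicate 1, 2 or 3 left 12, 18 and 17 calls, and leaving out control replicate 1, 2 or 3 left 21, 10 and 48. Hmgb2, Apold1, Ciart, Vegfa, H1f2, Rbm5, Papolg and Zfp866 passed with any 1 of these arrays left out, and the other 25 of the 33 called probe sets that are followed here lost the call in at least 1 case.

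**Figure D1:**
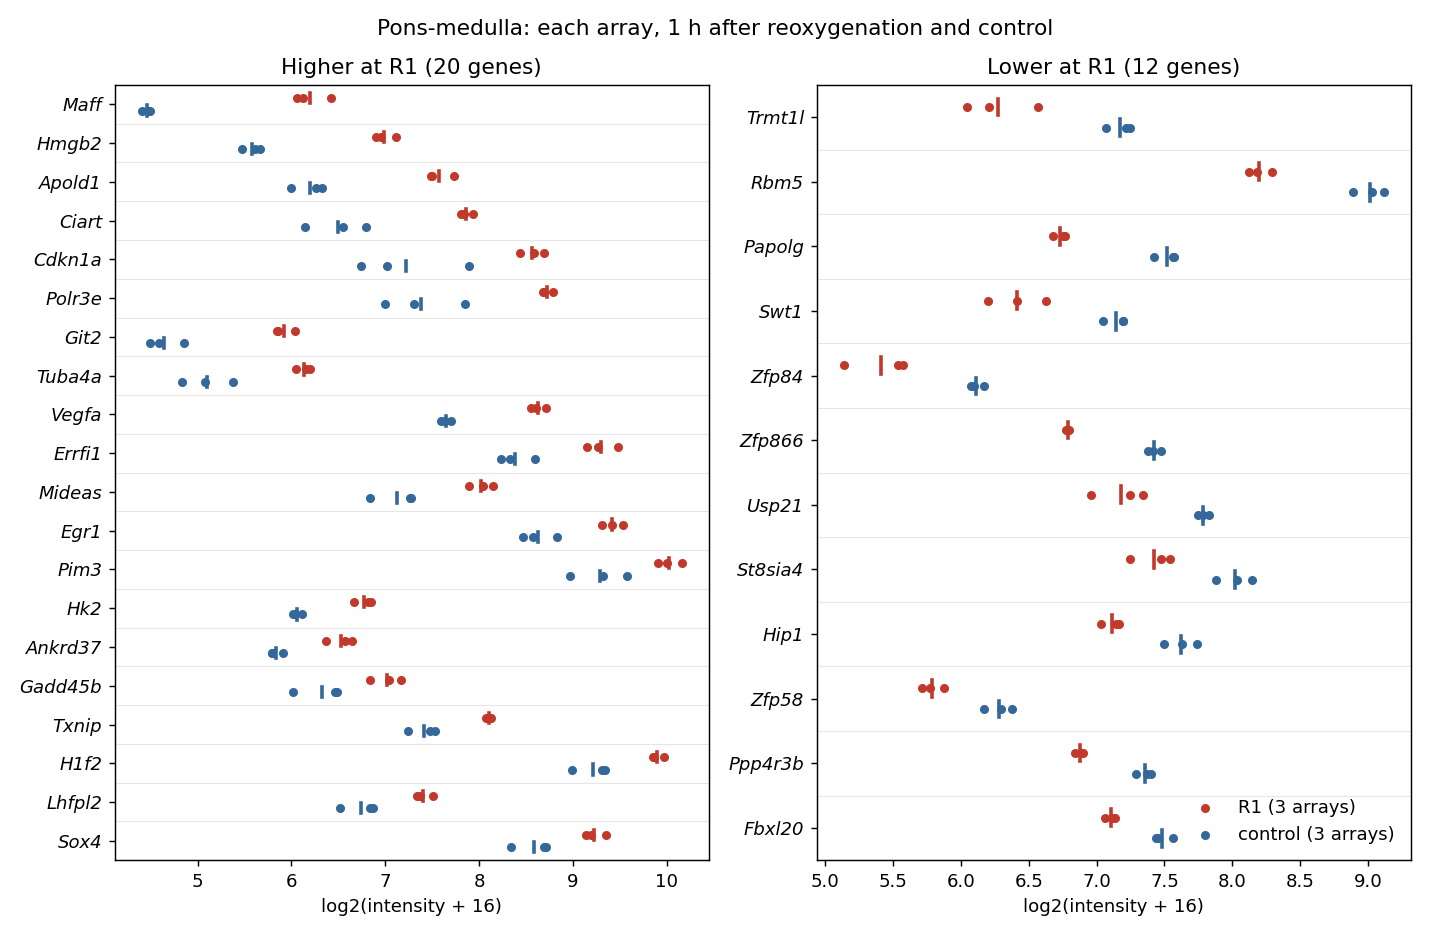
Intensity of the 32 genes that were named by the rule for large changes, each with 1 probe set, on the 3 R1 arrays (red) and the 3 control arrays (blue) of pons and medulla. The x axis is log2(intensity + 16) and short bars are group means. In each row the red and blue points do not overlap, which the rule required. The largest rise was that of Maff (1.74) and the largest fall that of Trmt1l (-0.90).

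Among 29 measured HIF target genes 4 rose and 0 fell, and their median change was 0.18. Over all 18193 genes, each with 1 probe set, 19 rose and 10 fell, and the median was -0.02. Vegfa, the growth factor that drives new vessels, had intensities of 374, 358 and 403 at R1, against 184, 192 and 177 in controls. Every R1 array lay far above every control, a change of 0.98 (SE 0.14, limma adjusted p = 0.00415). A dimmer Vegfa probe set stood 0.66 higher and did not pass (adjusted p = 0.195).

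Cdkn1a, which encodes the cell cycle inhibitor p21 and is also a p53 target, had 330, 396 and 367 at R1, against 91.1, 114 and 221 in controls. The control spread was wide, since control replicate 3 stood well above the other two, and the change of 1.35 (SE 0.24, adjusted p = 0.0271) was lost when any array but control replicate 3 was left out (highest adjusted p = 0.174, without control replicate 2). Its other probe set, at means of 61.9 and 14.6, stood 1.32 higher with an adjusted p of 0.476.

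Hk2, hexokinase 2, which traps glucose in the cell, had 85.5, 96.6 and 99.2 at R1, against 49.6, 49.0 and 53.2 in controls (0.72, SE 0.13, adjusted p = 0.0233). Ankrd37, an ankyrin-repeat gene known as a direct HIF target, had 84.5, 79.3 and 66.6 at R1, against 39.4, 39.4 and 44.3 in controls (0.70, SE 0.11, adjusted p = 0.0147). In both genes the control arrays lay close together and below each R1 array. The call of Hk2 was lost without any single array of the 6 (highest adjusted p = 0.133), and that of Ankrd37 without R1 replicate 1 or 2 or control replicate 1 or 2 (highest adjusted p = 0.112).

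The hypoxia response element, the DNA site that HIFs bind, has the core ACGTG or GCGTG. The promoters of Ankrd37 and Hk2, 250 bases before to 50 bases after the annotated start in RefSeq (GRCm38.p6), are shown because both genes rose and both windows hold the ACGTG core 2 times, in capitals, with CACGT its form on the opposite strand. The Ankrd37 window is chr8:45999801-46000100 on the minus strand and the Hk2 window chr6:82774405-82774704 on the minus strand.
Ankrd37: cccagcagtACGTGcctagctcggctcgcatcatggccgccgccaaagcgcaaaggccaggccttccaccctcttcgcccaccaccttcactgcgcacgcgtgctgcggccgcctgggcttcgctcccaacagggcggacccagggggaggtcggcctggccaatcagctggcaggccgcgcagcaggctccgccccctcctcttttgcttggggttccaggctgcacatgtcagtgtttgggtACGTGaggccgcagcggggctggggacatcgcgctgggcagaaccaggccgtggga
Hk2: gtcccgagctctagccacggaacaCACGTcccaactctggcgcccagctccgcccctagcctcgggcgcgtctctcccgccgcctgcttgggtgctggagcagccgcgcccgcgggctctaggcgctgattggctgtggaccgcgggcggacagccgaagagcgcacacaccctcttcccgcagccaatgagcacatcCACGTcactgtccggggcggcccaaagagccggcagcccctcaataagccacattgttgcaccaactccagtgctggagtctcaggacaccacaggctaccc

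The table held promoters for 19 of the 20 genes that rose and for all 12 that fell, Egr1 being the exception. ACGTG on either strand was in the promoters of 9 of the 19 and 1 of the 12, and in 19.6% of all 32851 promoters of this length. GCGTG was in promoters of 13 of the 19 and 4 of the 12, and in 32.4% of all. Genes with several annotated starts had several windows here, and a match of letters does not show that a factor binds.

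Other HIF targets stood apart between the groups without passing. Ddit4, an inhibitor of the growth kinase mTOR, had 725, 877 and 617 at R1, against 422, 389 and 554 in controls (0.68, SE 0.14, adjusted p = 0.0786). Pfkfb3, a glycolytic regulator, had 311, 341 and 408 at R1, against 236, 226 and 242 in controls (0.55, adjusted p = 0.0786). Adm, the vasodilator peptide adrenomedullin, had 54.2, 87.8 and 94.8 at R1, against 21.3, 52.7 and 39.3 in controls (0.84, adjusted p = 0.237). Ets1, a transcription factor of vessel-lining cells, was the HIF list's lowest member, with 55.1, 50.01 and 57.5 at R1, against 67.8, 104 and 94.7 in controls (-0.56, adjusted p = 0.186). Of the 29 genes, 12 had all R1 arrays above all controls and 1 had all below, where over all probe sets the shares were 5.04% and 8.81%.

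Of 30 immediate early genes 2 rose and 0 fell, where 0.104% of all genes rose, and the list's median change was 0.20. All R1 arrays were above all controls for 13 of the 30 and below for 0, against 5.89% and 8.83% of all genes. Maff, a small MAF leucine zipper factor, showed the largest rise of the comparison, with 50.7, 53.8 and 69.7 at R1, against 6.60, 5.21 and 6.44 in controls. The control arrays were at the dim end of the scale and all R1 arrays far above them (1.74, SE 0.29, adjusted p = 0.0157), although the call was lost when any array but control replicate 3 was left out (highest adjusted p = 0.112). Egr1, a zinc-finger factor of neuronal activation, had 617, 725 and 668 at R1, against 439, 338 and 364 in controls (0.80, SE 0.15, adjusted p = 0.0488), a call that did not outlast the loss of any single array of the 6.

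Further members of that list were higher with no overlap but did not pass. Fosl2, a FOS family factor, had 71.4, 62.9 and 80.5 at R1, against 30.02, 42.4 and 34.7 in controls (0.76, adjusted p = 0.119). Per1, both an early gene and a clock gene, had 346, 456 and 412 at R1, against 233, 218 and 279 in controls (0.70, adjusted p = 0.125). Fos, the best known of the class, had 449, 388 and 447 at R1, against 236, 366 and 247 in controls (0.59, adjusted p = 0.366), so the lowest R1 array was only just above the highest control. Errfi1, which blocks the EGF receptor, was the 1 of 14 feedback inhibitors of MAP kinase signalling that rose. It had 696, 598 and 551 at R1, against 307, 285 and 370 in controls (0.91, SE 0.15, adjusted p = 0.0147), and a further probe set stood 0.75 higher (adjusted p = 0.0171). Both calls concern 1 gene, and the first was lost without R1 replicate 1 or 2 or control replicate 1 or 2. The Dusp and Spry genes of the list, which also damp these kinases, did not pass.

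The cyclic AMP response element TGACGTCA, a palindrome bound by CREB and ATF factors, was in promoters of 2 of the 19 genes that rose, Maff and Errfi1, and in 1.79% of all promoters. Both windows are shown with the element in capitals because these genes carried the largest changes of their lists. Maff has 3 windows, of which the one at chr15:79347270-79347569 on the plus strand holds it, and Errfi1 has 2, of which the one at chr4:150854820-150855119 on the plus strand does. No promoter of the named genes held the AP-1 site TGANTCA, found in 7.81% of all.
Maff: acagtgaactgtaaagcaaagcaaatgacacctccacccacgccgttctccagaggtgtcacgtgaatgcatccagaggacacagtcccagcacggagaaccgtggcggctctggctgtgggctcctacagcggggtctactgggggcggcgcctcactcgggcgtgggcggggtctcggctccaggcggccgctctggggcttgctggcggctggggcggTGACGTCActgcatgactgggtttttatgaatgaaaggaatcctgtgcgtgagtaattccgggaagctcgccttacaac
Errfi1: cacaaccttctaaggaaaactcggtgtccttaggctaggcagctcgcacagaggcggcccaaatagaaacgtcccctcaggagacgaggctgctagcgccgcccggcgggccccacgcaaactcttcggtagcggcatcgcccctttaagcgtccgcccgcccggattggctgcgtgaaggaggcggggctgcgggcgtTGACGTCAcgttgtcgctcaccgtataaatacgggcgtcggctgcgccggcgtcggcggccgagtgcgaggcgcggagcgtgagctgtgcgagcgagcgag

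Apold1, an early gene of vessel-lining cells, had 163, 165 and 197 at R1, against 47.8, 64.5 and 60.8 in controls. Its lowest R1 array was well over the highest control, a change of 1.38 (SE 0.16, adjusted p = 0.000926). It was the 1 of 12 endothelial markers that rose. The summed endothelial markers were 1594 to 1755 at R1 and 1522 to 1696 in controls and overlapped.

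Hmgb2, a DNA-bending chromatin protein, had the smallest adjusted p of the comparison. It had 108, 103 and 123 at R1, against 32.9, 28.5 and 34.9 in controls (1.40, SE 0.15, adjusted p = 0.000559). A dimmer probe set rose by 0.84 (adjusted p = 0.0094) and one more stood 1.05 higher without passing (adjusted p = 0.0883). H1f2, a linker histone of the H1 family, had 983, 916 and 907 at R1, against 619, 492 and 631 in controls (0.68, SE 0.10, adjusted p = 0.00415). Hmgb2 was the 1 of 8 measured members of a list of high mobility group proteins and histone variants that rose by a probe set of its own. The list's H3f3a and H3f3b, genes of histone H3.3, were scored there by dim probe sets that did not pass (-0.13 each). A pair of bright probe sets shared by 6 annotated genes, H3f3a and H3f3b among them, stood higher at R1, and which of these genes they measure cannot be told apart. One had 1579, 1543 and 1459 at R1, against 1146, 970.2 and 1072 in controls (0.52, adjusted p = 0.00888), and the other had a change of 0.52 (adjusted p = 0.0327). Sox4, a transcription factor of neural progenitors, had 546, 570 and 637 at R1, against 396, 404 and 308 in controls (0.65, SE 0.11, adjusted p = 0.0147). Of its 7 other probe sets, 4 stood higher and 3 lower (to -0.57), and none of them passed.

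Ciart, a repressor in the circadian clock, was the 1 of 21 clock genes that rose. It had 229, 213 and 207 at R1, against 77.5, 54.9 and 95.1 in controls, so that each R1 array was above 200 and each control below 100 (1.36, SE 0.17, adjusted p = 0.00192). The R1 and control mice were not killed at a matched hour after the chamber, and an effect of the hour of day cannot be told apart from that of hypoxia. Bhlhe40, a clock repressor, had 429, 476 and 359 at R1, against 318, 253 and 331 in controls (0.46, adjusted p = 0.224). Nr1d1, another, had 162, 228 and 198 at R1, against 126, 158 and 142 in controls (0.42, adjusted p = 0.613).

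The E-box CACGTG, the palindrome through which clock factors act and which contains the ACGTG core, was in promoters of 4 of the 19 genes that rose and 0 of the 12 that fell, and in 7.15% of all promoters. The Ciart promoter, chr3:95882179-95882478 on the minus strand, is shown because it holds 3 of them, in capitals.
Ciart: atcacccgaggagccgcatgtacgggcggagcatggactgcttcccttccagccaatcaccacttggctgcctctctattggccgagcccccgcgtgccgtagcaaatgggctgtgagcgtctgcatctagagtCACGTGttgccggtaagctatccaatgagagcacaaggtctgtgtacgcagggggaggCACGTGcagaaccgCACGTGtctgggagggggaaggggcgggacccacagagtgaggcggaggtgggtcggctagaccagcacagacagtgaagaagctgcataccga

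Txnip, an alpha-arrestin that restrains the uptake of glucose, had 263, 261 and 254 at R1, against 162, 136 and 168.4 in controls (0.69, SE 0.11, adjusted p = 0.0127). It was the 1 of 21 alpha-arrestin and FOXO target genes that rose, and that list had a median of -0.03. Its call was lost without any of the R1 arrays or control replicate 2, and its second probe set stood 0.47 higher (adjusted p = 0.493). Ppp1r3c, which directs a phosphatase to glycogen, had 1258, 1167 and 1211 at R1, against 840, 696 and 809 in controls (0.63, SE 0.12, adjusted p = 0.0353). It was the 1 of 23 measured genes of glycolysis and pyruvate handling that rose, and their median change was 0.04. Hk2 and Pfkfb3 stood in the HIF list. Pim3, a survival kinase, had 1125, 1009 and 944 at R1, against 622, 483 and 747 in controls (0.74, SE 0.14, adjusted p = 0.0353), while 1 of its other probe sets stood 0.25 lower (adjusted p = 0.794).

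Gadd45b, a stress gene of the growth arrest family, had 98.5, 116 and 127 at R1, against 72.4, 48.9 and 73.7 in controls (0.69, SE 0.13, adjusted p = 0.0354). Its brighter probe set, with 142, 111 and 103 at R1 and 81.2, 112 and 95.4 in controls, overlapped and stood 0.26 higher (adjusted p = 0.849). Polr3e, a subunit of RNA polymerase III, had 424, 395 and 398 at R1, against 142, 112 and 214 in controls (1.34, SE 0.23, adjusted p = 0.0234). The groups were far apart, but the call was lost when any array but control replicate 3 was left out. Mideas, a partner of histone deacetylases, had 247, 221 and 267 at R1, against 98.7, 138 and 138 in controls (0.90, SE 0.17, adjusted p = 0.0395), and its other probe sets, all dimmer, stood between -0.02 and 0.08. Lhfpl2, a membrane protein gene, had 146, 166 and 150 at R1, against 101, 98.7 and 75.9 in controls (0.66, SE 0.11, adjusted p = 0.0214).

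A pair of calls came from 1 dim probe set of a gene each, with controls that stood apart from all other stages. The Git2 probe set, for a regulator of ARF GTPases, had 41.6, 42.03 and 49.8 at R1, against 12.9, 8.09 and 6.56 in controls (1.27, SE 0.20, adjusted p = 0.012). It lay 0.91 to 1.27 above the control at all 7 stages of hypoxia and reoxygenation, R24 (24 hours in room air) included. The Tuba4a probe set, for an alpha-tubulin, had 50.3, 57.2 and 55.2 at R1, against 17.9, 12.5 and 25.6 in controls (1.04, SE 0.18, adjusted p = 0.0216), and was 0.83 to 1.11 above it at all 7. Brighter probe sets of Git2 (-0.06, adjusted p = 0.962, and 0.21, adjusted p = 0.646) and Tuba4a (0.11, adjusted p = 0.815) did not pass. The difference thus lies between the 3 controls and all 7 stages and is not particular to R1, and its cause was not tested.

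Fewer genes fell than rose. Rbm5, an RNA-binding splicing regulator, had 274, 297 and 263 at R1, against 507, 538 and 459 in controls. Every R1 array was under 300 and every control over 450 (-0.81, SE 0.11, adjusted p = 0.00345). Further Rbm5 probe sets fell by 0.80 (adjusted p = 0.0171) and 0.72 (adjusted p = 0.043), while a dim one stood 0.54 higher (adjusted p = 0.52). Rbm5 was the 1 of 31 CLK kinases and splicing regulators that fell, and the list's median was 0.00. Clk1, a kinase of splicing factors, had 204, 171 and 186 at R1, against 291, 325 and 264 in controls (-0.60, adjusted p = 0.117). Srsf5, a splicing factor, stood the other way, with 1657, 1572 and 1427 at R1, against 1274, 700.3 and 927 in controls (0.71, adjusted p = 0.152).

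Papolg, a poly(A) polymerase that adds tails to mRNA, had 93.0, 86.7 and 91.8 at R1, against 155, 174 and 173 in controls (-0.78, SE 0.10, adjusted p = 0.00212). Zfp866, a zinc-finger gene, had 95.1, 93.6 and 94.7 at R1, against 162, 150 and 154 in controls (-0.63, SE 0.09, adjusted p = 0.00415). Replicates of both genes were tight in either group. Zfp84 and Zfp58, also zinc-finger genes, fell by 0.70 (adjusted p = 0.0465) and 0.49 (adjusted p = 0.0294). St8sia4, which builds polysialic acid on neural adhesion molecules, had 162, 170 and 136 at R1, against 268, 246 and 220 in controls (-0.60, SE 0.10, adjusted p = 0.0234). Usp21 and Fbxl20, of the ubiquitin system, fell by 0.61 (adjusted p = 0.0271) and 0.38 (adjusted p = 0.0478), Hip1, a protein of endocytosis, by 0.51 (adjusted p = 0.0488), and Ppp4r3b, a phosphatase subunit, by 0.48 (adjusted p = 0.043). Hip1, like Git2, stood on the same side of the control at all 7 stages, between -0.51 and -0.20. Other named genes did so too, among them Trmt1l (-0.90 to -0.21), Usp21 (-0.61 to -0.07) and, of the rises, Hk2 (0.15 to 0.72). The falls were more open to scaling than the rises. With each array centred on its median, 40 probe sets were higher and 8 lower (83.3% higher, against 66.7% as deposited), and with quantile normalization 34 and 9 (79.1% higher). At an unadjusted p under 0.05 the share that was higher was 33.1% as deposited, 73.4% when centred and 52.2% with quantile normalization. St8sia4, Trmt1l, Zfp84, Zfp58, Hip1, Ppp4r3b and Fbxl20 lost the call when arrays were centred, and Rbm5, Papolg, Zfp866, Swt1 and Usp21 did not. Among the rises, Egr1 and Ppp1r3c lost it with quantile normalization.

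Trmt1l, a tRNA methyltransferase-like gene, and Swt1, an RNA endonuclease gene, are neighbours on chromosome 1 that point away from each other. Trmt1l had 79.1, 49.9 and 57.8 at R1, against 118, 132 and 136 in controls (-0.90, SE 0.17, adjusted p = 0.0379). Swt1 had 57.4, 83.1 and 69.4 at R1, against 131, 130 and 116 in controls (-0.73, SE 0.12, adjusted p = 0.0147). Both were lower on every R1 array than on any control. The call of Trmt1l was lost when any array but R1 replicate 1 was left out, and that of Swt1 without R1 replicate 1 or 3 or control replicate 1 or 2. Dimmer probe sets of Trmt1l stood at 0.19 and -0.15 and one of Swt1 at -0.47 (adjusted p = 0.36). Their annotated starts lie 107 bases apart and their promoter windows share 206 bases. The sequence between the starts is therefore printed once, within the Swt1 window chr1:151428386-151428685 on the minus strand. The GCGTG core in capitals begins at -188 from the Swt1 start. It lies outside the Trmt1l window, which held none of the motifs searched for.
Swt1: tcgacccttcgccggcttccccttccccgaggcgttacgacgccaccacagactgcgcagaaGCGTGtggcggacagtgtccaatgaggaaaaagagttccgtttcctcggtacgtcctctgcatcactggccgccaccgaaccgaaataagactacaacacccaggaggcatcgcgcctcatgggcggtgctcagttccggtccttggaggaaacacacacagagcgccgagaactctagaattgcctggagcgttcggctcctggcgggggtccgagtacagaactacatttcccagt

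None of 20 glucocorticoid-induced genes passed. At an unadjusted p under 0.05, 9 of the 20 were higher and 0 lower, beside 543 higher and 987 lower of all 18193 genes, and the list's median was 0.25. Sgk1, a kinase of that list, had 2411, 2385 and 2143 at R1, against 1034, 457 and 1616 in controls (1.32, adjusted p = 0.344), and the controls alone ranged over 3-fold. Nfkbia, an inhibitor of NF-kappaB, had 1834, 2009 and 1828 at R1, against 1267, 1175 and 1500 in controls (0.53, adjusted p = 0.0718). Cebpd, an inflammatory transcription factor, had 104, 122 and 94.5 at R1, against 30.2, 40.5 and 62.1 in controls (1.06, adjusted p = 0.185). Of 17 p53 targets Cdkn1a alone rose. Cirbp, the cold-inducible RNA-binding protein, had 508, 539 and 420 at R1, against 326, 254 and 336 in controls (0.66, adjusted p = 0.163).

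None of 21 heat shock genes passed, and 0 had an unadjusted p under 0.05. Hspa1b, an inducible HSP70 gene, had 71.0, 62.2 and 59.8 at R1, against 77.0, 373 and 78.2 in controls, so that control replicate 2 set the mean difference of -0.91 (adjusted p = 0.702). Of 24 genes of the unfolded protein response 0 passed and 2 had an unadjusted p under 0.05, both lower. Of 18 Notch and Id genes 0 passed, and Jag1, a Notch ligand, had 50.4, 63.3 and 62.0 at R1, against 79.8, 106 and 81.0 in controls (-0.49, adjusted p = 0.206). Among 14 regulators of the respiratory chain and oxygen sensors 0 passed, with Hif1a itself at 797, 683 and 650 at R1 and 657, 615 and 634 in controls (0.15, adjusted p = 0.763).

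Genes that make this region what it is did not pass either. Of 20 genes of the respiratory network and of chemoreception, 0 passed and 0 had an unadjusted p under 0.05, with changes from -0.31 to 0.27 and a median of 0.00. For 6 of the 20, both group means were under an intensity of 16, where a change could hardly be seen. Of 13 genes of brainstem monoamine neurons 0 passed, and 1 had an unadjusted p under 0.05, Slc6a2, the noradrenaline transporter, at 65.2, 71.8 and 76.3 at R1, against 109, 112 and 78.8 in controls (-0.40, adjusted p = 0.443). Tph2, which makes serotonin, had 278, 359 and 343 at R1 and 273, 330 and 189 in controls, which overlapped. Over all genes 0.104% rose and 0.055% fell, so a count of 0 in a list of this size, here or above, says little. The SE of single genes leaves changes under 1.5-fold largely out of reach here.

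**Figure D2:**
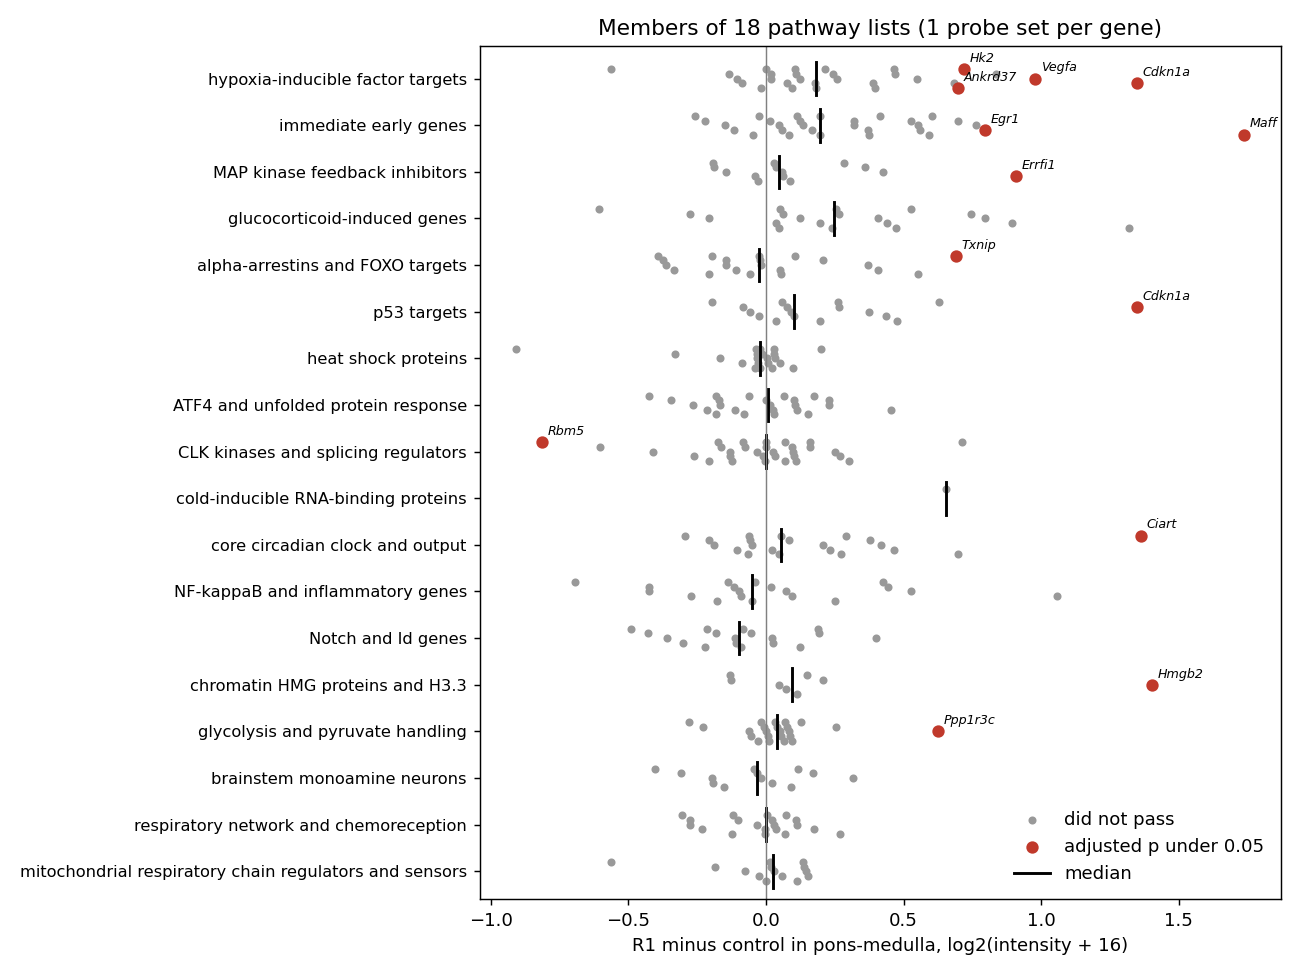
Change of each measured member of 18 pathway lists in pons and medulla, R1 minus control in log2(intensity + 16) on the x axis, 1 probe set a gene, with lists as rows and black bars as list medians. Red points passed at an adjusted p under 0.05 (named), grey points did not; 4 of 29 HIF targets and 2 of 30 immediate early genes are red, and Rbm5 is the single red point below 0.

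The summed markers of neurons, astrocytes, oligodendrocytes, microglia, choroid plexus and blood overlapped between R1 and control arrays. For the 9 markers of meninges and fibroblasts the sum was 5024 to 5298 at R1 and 4338 to 4924 in controls, without overlap, and 0 of the 9 passed. Slc6a13, a GABA transporter of the meninges, had 64.3, 55.5 and 40.9 at R1, against 7.89, 11.1 and 22.7 in controls (1.23, adjusted p = 0.0864). The part of these cells in the other rises was not tested. For the 10 markers of choroid plexus and ependyma, the median change from the control was -0.08 at R1. It was -0.49 after 3 hours of hypoxia and -0.76 after 3 hours in room air. The sum of these 10 markers ran from 579 to 8538 over the pons-medulla arrays of all stages. At R1 it was 4826 to 6437 and in controls 5385 to 6637. The part of tissue content in the comparisons of R1 with other stages below was not tested.

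To set the first hour in room air against the end of hypoxia, R1 was compared with 3 hours of hypoxia (H3), and 9 probe sets differed (0.02%), 6 of them lower at R1. Depp1, a FOXO target, had 34.9, 84.8 and 17.4 at R1, against 316, 294 and 292 at H3 (-2.51, SE 0.41, adjusted p = 0.0316), and its brighter probe set did not pass (adjusted p = 0.387). Adm had 51.8, 54.6 and 52.5 at R1, against 138, 205 and 171 at H3, at the probe set that differed (-1.43, SE 0.22, adjusted p = 0.0253), and its other probe set stood at -0.44 (adjusted p = 0.983). Ier3, an early gene of cell survival, had 118, 155 and 149 at R1, against 483, 297 and 322 at H3 (-1.27, SE 0.17, adjusted p = 0.0049). Each R1 array lay below each H3 array at these probe sets, while the further ones of Depp1 and Adm did not pass.

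Ddit4 had 725, 877 and 617 at R1, against 1215, 1524 and 1357 at H3 (-0.88, SE 0.14, adjusted p = 0.0333). Hes1, a Notch effector, had 78.5, 69.6 and 72.1 at R1, against 138, 138 and 143 at H3 (-0.80, SE 0.10, adjusted p = 0.00287). H3f3b, a gene of histone H3.3, had 29.1, 28.6 and 12.4 at R1, against 124, 91.2 and 116 at H3 at a dim probe set (-1.70, SE 0.22, adjusted p = 0.00287), while the bright probe sets that it shares with other genes stood at 0.09 and 0.15 (adjusted p near 1 for both). The one named gene that was higher at R1, 2310009B15Rik, was dim, with 20.02, 20.2 and 15.6 at R1, against 4.69, 6.60 and 3.09 at H3 (0.74, adjusted p = 0.0253). Vegfa (0.13), Apold1 (-0.16), Hmgb2 (0.38) and Papolg (0.05) had R1 minus H3 differences that did not pass, and Rbm5 stood 0.59 lower at R1 than at H3 (adjusted p = 0.0899). Of the 9 calls, 3 were left without R1 replicate 1 and 5 without H3 replicate 1 or 3.

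Between 3 hours and 1 hour in room air, R3 minus R1, 60 probe sets differed (0.133%), 28 higher and 32 lower at R3. This comparison shares its R1 arrays with the one against controls. Usp19, a deubiquitinase, had 79.2, 88.1 and 38.8 at R3, against 8.25, 4.39 and 5.89 at R1 (1.88, SE 0.28, adjusted p = 0.0118). Ciart fell to 85.5, 83.3 and 112 at R3, against 229, 213 and 207 at R1 (-1.09, SE 0.17, adjusted p = 0.0118). Apold1 had 60.8, 69.1 and 98.1 at R3, against 163, 165 and 197 at R1 (-1.07, SE 0.16, adjusted p = 0.0118). For both, all R3 arrays lay below all R1 arrays.

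Vegfa had 217, 183 and 201 at R3, against 374, 358 and 403 at R1 (-0.87, adjusted p = 0.0118), and its R3 level was 0.11 above the control. Errfi1 was lower at R3 than at R1 by 0.94 (adjusted p = 0.0118) and Mideas by 1.06 (adjusted p = 0.0118). Nfkbia was lower by 1.05 (adjusted p = 0.029) at a dimmer probe set and by 0.63 (adjusted p = 0.0173) at a brighter one. Sgk3, a kinase related to Sgk1, had 285, 207 and 358 at R3, against 145, 89.0 and 118 at R1 (1.16, adjusted p = 0.0461). Ets1 had 123, 129 and 107 at R3, against 55.1, 50.01 and 57.5 at R1 (0.94, adjusted p = 0.0118).

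Swt1 had 134, 167 and 135 at R3, against 57.4, 83.1 and 69.4 at R1 (0.91, SE 0.12, adjusted p = 0.00887). Rbm5 had 535, 543 and 438 at R3, against 274, 297 and 263 at R1 (0.82, adjusted p = 0.00887), and its R3 level was 0.01 above the control. Cdkn1a and H1f2 did not move that way, since R3 stood 0.08 and 0.04 above R1 and neither passed. By 24 hours after reoxygenation the change from the control was 0.02 for Vegfa and Apold1, 0.17 for Hmgb2, 0.19 for Ciart, 0.11 for Rbm5 and -0.61 for Cdkn1a. The count of 60 rested on single arrays. It was 0 by limma without R1 replicate 1 and 0 without R3 replicate 2, with 2914 and 4029 at an unadjusted p under 0.05, 3 and 22 without R1 replicate 2 and 3, 6 without R3 replicate 1, and 119 without R3 replicate 3.

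**Figure D3:**
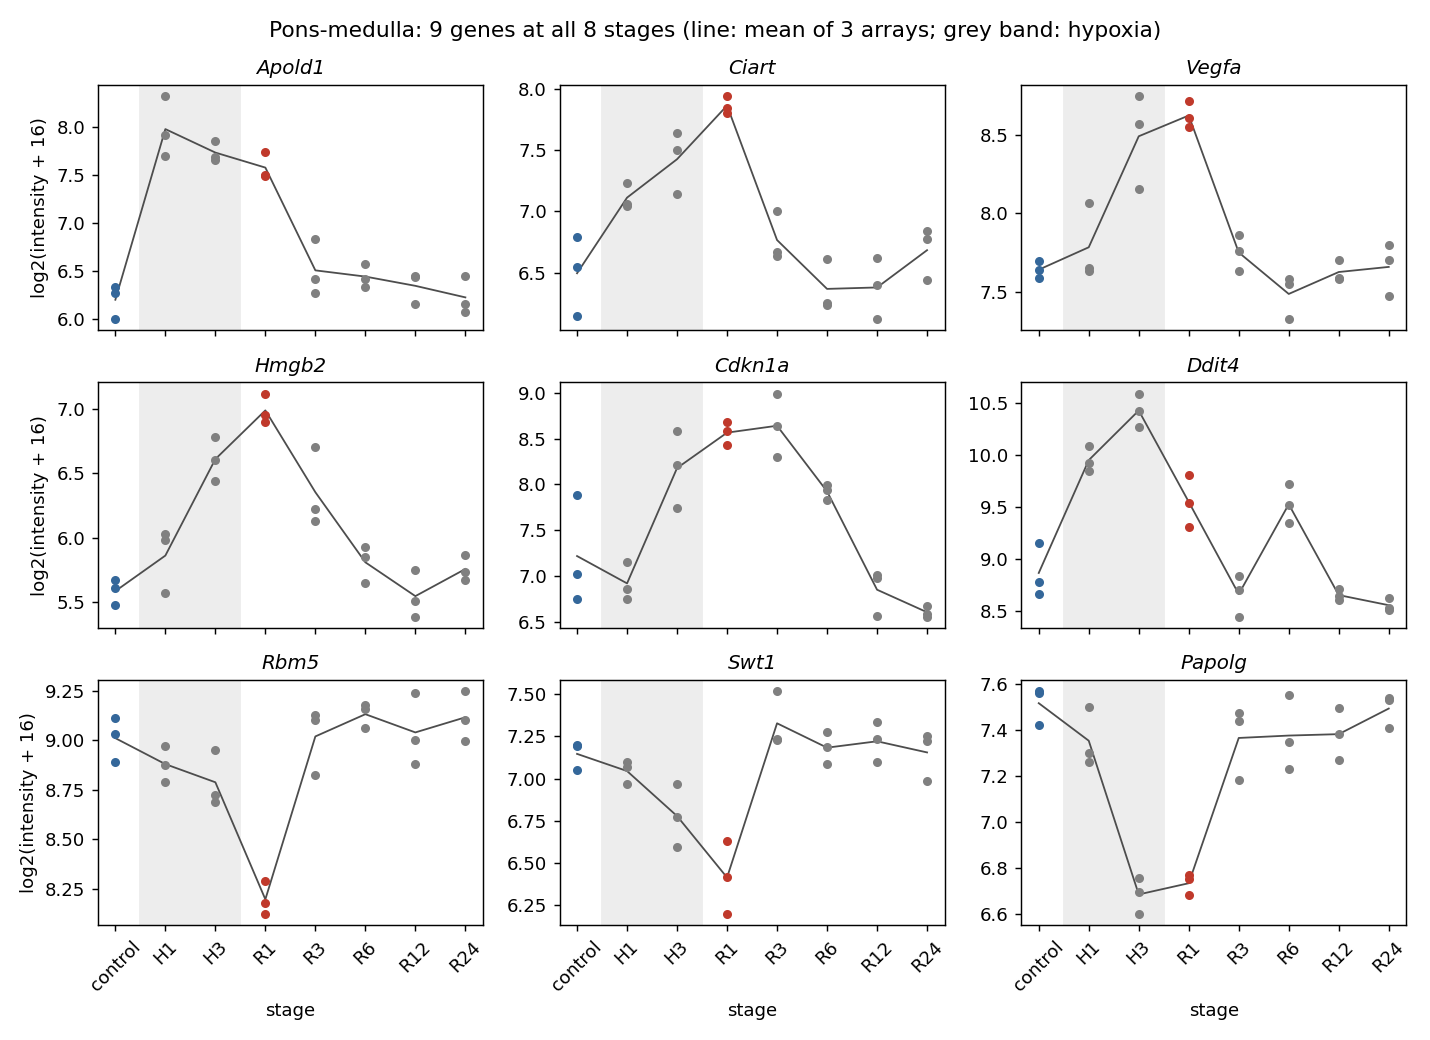
Intensity of 9 genes on the 24 pons-medulla arrays at 8 stages, on the y axis as log2(intensity + 16) with a scale per panel, and stages evenly spaced on the x axis, not in proportion to time: control (blue), H1 and H3 (1 and 3 hours of hypoxia, grey band), R1 (red) and R3 to R24. Lines join means of 3 arrays; Apold1, Ciart and Vegfa were lower at R3 than at R1 (-1.09 to -0.87), Rbm5 and Swt1 higher (0.82 and 0.91), and the R3 minus R1 difference of Cdkn1a was 0.08.

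The same time point in the other 6 regions shows how far these changes were shared, although the regions come from the same mice and are not independent. Of the 51 probe sets, 43 changed in the same direction in all 6 other regions, 40 passed the same way in at least 1, 7 in all 6, and 11 in none. The shares of all probe sets that do so were not counted, so these counts alone do not show how unusual the 51 are. In thalamus 28 of the 51 passed (0.389% of all probe sets did there), in midbrain 26 (0.209%), in cerebellum 30 (1.08%), in striatum 20 (0.426%), in hippocampus 17 (0.322%) and in cortex 15 (0.315%). Rbm5 changed by -0.86 to -0.68 and Zfp866 by -0.76 to -0.54 in the other regions, and both passed in all 6. Hmgb2 changed by 1.08 to 1.59 and Txnip by 0.83 to 1.02, also passing in all 6. Hk2 passed in none, with -0.11 to 0.41, and Git2 passed in none, with -0.41 to 0.95.

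**Figure D4:**
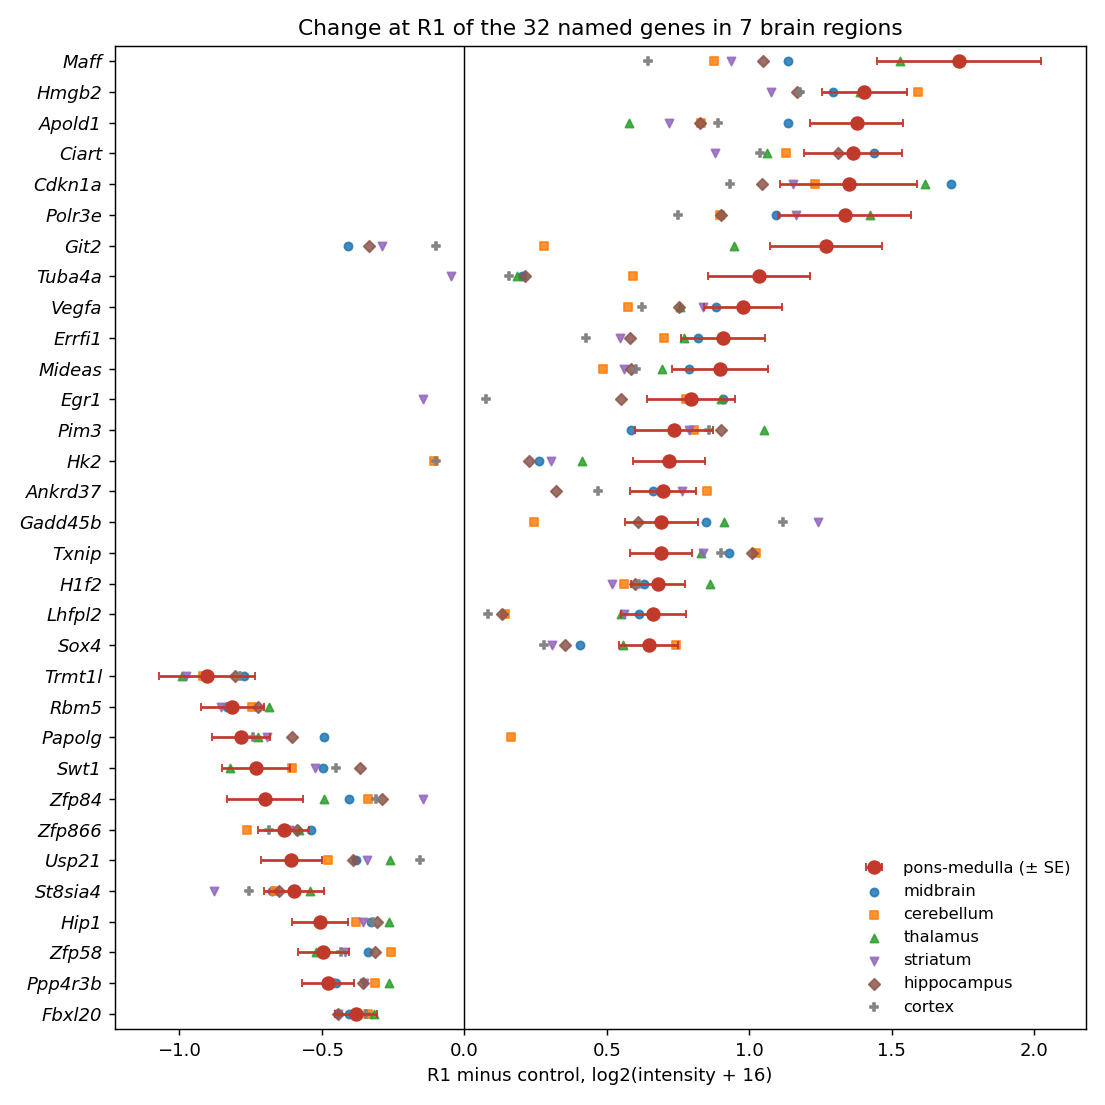
Change at R1 of the 32 genes named by the rule for large changes, R1 minus control in log2(intensity + 16) on the x axis, in pons and medulla (red, with its standard error) and in 6 other regions (symbols, no error shown). Most symbols lie on the red point's side of 0, with Git2, Tuba4a, Egr1, Hk2 and Papolg the rows where at least 1 region lies on the other side; for Papolg that is cerebellum, at 0.16.

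Whether a change was larger or smaller in pons and medulla than elsewhere was tested on the 42 R1 and control arrays of all regions. Against the mean of the other 6 regions 0 probe sets passed by limma (0%), with 1964 at an unadjusted p under 0.05. The smallest p values of named genes belonged to Tmco2, a dim transmembrane gene (difference 0.72), Apold1 (0.55, SE 0.11) and Klf6, a zinc-finger factor (0.51), each with an adjusted p of 0.453. Apold1 rose by 1.38 in pons and medulla and by 0.58 to 1.14 in the others. The difference of Hk2 was 0.55 (SE 0.13) with an adjusted p of 0.453, so its rise cannot be called particular to this region.

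Against midbrain, the neighbouring part of the brainstem, 0 passed (0%), with 1715 at an unadjusted p under 0.05. The smallest adjusted p, 0.0824, was that of Gadd45gip1, a mitochondrial ribosome protein gene, with 5.36, 13.8 and 10.6 at R1 and 32.4, 34.4 and 29.0 in controls of pons and medulla, a fall of 0.90 (adjusted p = 0.0127), while midbrain stood at 0.57. Git2 (1.68) and Sox1, a neural factor (-0.85), followed with adjusted p values near 1.

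Against cerebellum, the other hindbrain region, 3 probe sets passed (0.00666%), with 2353 at an unadjusted p under 0.05. Papolg was the 1 of them that had changed in pons and medulla. In cerebellum it had 185, 175 and 151 at R1, against 128, 159 and 165 in controls, a change of 0.16 beside the -0.78 of pons and medulla, and the difference was -0.95 (SE 0.16, adjusted p = 0.0261). Zik1, a zinc-finger gene, had 105, 87.0 and 68.5 at R1, against 96.7, 101 and 92.4 in controls of pons and medulla, where the groups overlapped. In cerebellum it had 159, 161 and 163 at R1, against 94.5, 96.0 and 94.0 in controls, and the difference was -0.83 (SE 0.14, adjusted p = 0.0261). Gm7854, a predicted gene, was near the bottom of the scale in pons and medulla, at 1.52 to 1.83 at R1 and 1.10 to 1.71 in controls. In cerebellum it had 18.1, 16.9 and 15.8 at R1, against 1.48, 3.34 and 8.47 in controls (difference -0.68, SE 0.11, adjusted p = 0.0201). All 3 calls were lost when R1 replicate 2 or 3 or control replicate 2 or 3 of pons and medulla was left out, and without R1 replicate 1 that of Papolg and without control replicate 1 that of Zik1 was lost as well.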

How the data were processed

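Total RNA of 7 brain regions was hybridized to Affymetrix Mouse 430 2.0 arrays. The deposited table holds 1 linear intensity per probe set and array (45101 probe sets). Scanner images were read with GCOS 1.3 per the labels, and how the deposited intensity values were made from them is not given in the sources used here. The methods name GCRMA with quantile normalization, but every array's trimmed mean (2% off each end) was 125, so the values look scaled to a common mean. No new normalization was applied. The number of arrays limits the precision.

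The 64 control probe sets were left out, 16 was added and log2 taken. limma 3.58.1 (R 4.3.3) fitted 8 stage means to the 24 pons-medulla arrays, with eBayes and Benjamini-Hochberg adjustment over 45037 probe sets. Differences between regions were fitted on 42 arrays, with stage and replicate number as a random block standing for the mouse (correlation 0.0366). Of the probe sets, 34945 name 1 gene, 932 several and 9160 none. P-values measure the spread between mice, 3 per group.

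Genes were named by a rule: the largest rises and falls that passed (at most 20 each), did not overlap, named 1 gene and reached an intensity of 32, members of 33 fixed lists (468 of 496 entries measured, each by its brightest probe set), and the smallest p between regions. The members, lists and rule were chosen with earlier results of these data known. Methods were checked on simulated data of 45037 probe sets. Of changes planted in probe sets with an average intensity of at least 32, 92% of 3-fold and 86% of 2-fold ones were recovered. Promoters are RefSeq's (GRCm38.p6). Alternatives were other pseudocounts, scalings, filters and tests, a replicate block, and leaving out each array.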

Additional observations from a re-analysis of the deposited data

Results flagged for a closer look

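The change at R1 differed between pons and medulla and cerebellum, by limma's test of the difference itself over all probe sets, for Gm7854 (-0.68), Papolg (-0.95) and Zik1 (-0.83). Papolg fell in pons and medulla (-0.78) and stood at 0.16 in cerebellum. Zik1 stood at -0.15 in pons and medulla and at 0.68 in cerebellum, and Gm7854 at 0.02 and 0.70. All 3 calls were lost when R1 replicate 2 or 3 or control replicate 2 or 3 of pons and medulla was left out, in addition that of Papolg without R1 replicate 1 and that of Zik1 without control replicate 1.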

How the results depend on the processing

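Counts of calls for R1 against control (51, 34 higher, 17 lower) moved with the settings. They were 33, 22 and 11 with a pseudocount of 1, and 0, 0 and 0 with the 6 arrays alone. The pseudocount of 1 ended the calls of Maff, Cdkn1a, Mideas, Egr1, Pim3, Gadd45b, Ppp1r3c, Trmt1l, Zfp84, Hip1, Ppp4r3b and Fbxl20 among the named genes. The lower calls numbered 30 among the brighter probe sets, 9 with quantile normalization, 8 with centring, and 9 with a one-way test at 5% followed by the methods' t-test and 1.5-fold. The methods' t-test gave 3374 calls unadjusted (1231 higher, 2143 lower) and 0, 0 and 0 after Benjamini-Hochberg. With the replicate block there were 80, with 47 higher and 33 lower. The labels do not say what R1 and control arrays of the same replicate number share. Correlations of same-numbered deviations were 0.0979, 0.109 and 0.026, and every array correlated best with its own number. What the number stands for was not tested. With 1 array left out, calls ranged from 10 to 48, higher from 7 to 31 and lower from 3 to 17. Those of R1 against H3 ranged from 3 to 9 and of R3 against R1 from 0 to 119. Against midbrain there was 1 call with a pseudocount of 1 and 1 with quantile normalization. Against cerebellum there were 0 with a pseudocount of 1, 7 with 32, and 0 to 3 with an array left out, and against the other regions 0 to 1. Of 53 further probe sets of the named genes, 4 passed the same way, 38 had the same sign without passing, and 11 had the opposite sign: Git2 (-0.0553), Mideas (-0.0227 and -0.0044), Pim3 (-0.25), Lhfpl2 (-0.46), Sox4 (-0.57, -0.20 and -0.46), Trmt1l (0.19), Rbm5 (0.54) and Fbxl20 (0.00704). No called change of sign arose under any other setting. The cause of these shifts was not tested, except that the fit of 6 arrays and the left-out arrays have fewer samples. Dim probe sets have larger errors (median SE 0.20 where both group means are under 32, against 0.14 otherwise).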
